A study of Rattus norvegicus with 4 samples.

Results

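The transcripts described here are of genes known from germ cells of the testis. They were measured in cultures labelled as peritubular myoid cells, the contractile cells that wrap the seminiferous tubule. Which cells of the cultures they came from was not measured. The members are 42 genes of meiosis and spermatid development, matched by gene symbol or an older symbol to the probe names of a rat microarray. Probes were found for 37 of the 42, with 40 probes among 41012 on the array and 35639 genes or unnamed transcripts in all. Spag6, Stra8, Dazl, Clgn and Meig1 had no probe by that name. The matched members fell into 26 spermatid genes of 27 listed, 6 meiotic genes of 8, and 5 of 7 genes that are transcribed from the pachytene stage of meiosis onward, called pachytene onset genes below.

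Peritubular cells were isolated from the testes of male rats aged 40 days and cultured for 4 days in a defined medium with growth factors. The study compared 2 arrays of cells given testosterone in pulses at 1e-07 M with 2 arrays of control cells, numbered 1 and 2 in each group. The protocol text is the same for all 4 samples, names no vehicle for the controls, and does not say what the number stands for or whether the replicates were separate animals or cultures. All p-values therefore reflect how far these arrays spread, and that spread may be technical. The study set out to find the genes that testosterone induces in these cells. The members were compared between arrays numbered 2 and 1 within each group, between testosterone and control, and between meiotic and spermatid genes on each array.

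Male germ cells enter meiosis as spermatocytes, pair their chromosomes along the synaptonemal complex, and then become haploid spermatids. Spermatids replace histones first with transition proteins and then with protamines, and build the acrosome and the flagellum. Many of their genes are transcribed almost only in germ cells, and the transcription factor CREM drives a part of them through cAMP response elements in their promoters. Some members are also used elsewhere, such as the centrosomal and flagellar protein ODF2 and the tektins of ciliary microtubules.

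Each array held 43379 spots that were not controls, of which 63.5% to 68.2% were well above background by the scanner software's flag. A level is the log2 processed signal minus that array's 75th percentile over those spots, and a difference is between such levels. Levels of different probes were not compared with each other, and the summed levels given below are led by the brightest probes of a list. On control 1 the coefficient of variation of replicated spots was 9.52%, against 5.25% to 5.53% on the other arrays, and its header verdict asked for evaluation. On that array 205 spots read at least 2 log2 units below the lowest of the other 3 arrays, 202 of them in array columns 57 to 85, against 2 to 21 such spots on the others. Of the peritubular and smooth muscle markers, 14 of 18 with a probe were well above background on all 4 arrays. Fibronectin (Fn1) stood at 6.55 to 7.57, whereas Acta2 and Myh11 had no probe by that name. Tagln was dimmer, at -4.63 to -2.75, and Cnn1 and Itga8 were well above background on no array. Genes listed for other cell types were bright too, such as Hsd11b1 (Leydig) at 7.34 to 7.73 and Cd68 (macrophage) at 5.92 to 6.54.

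Transcripts of the members were detected on every array, and more of them on the arrays numbered 2. Of the 37 members with a probe, 19 were well above background on testosterone 1 and 21 on control 1, against 30 on testosterone 2 and 30 on control 2. Over all genes the share was 61.5% and 61.6% on the arrays numbered 1 and 66.5% and 64.8% on those numbered 2. Spermatid genes were detected in 14 and 16 of 26 cases on testosterone 1 and control 1 and in 22 of 26 on both arrays numbered 2. Meiotic genes were detected in 3 and 2 of 6 cases and then in 5 of 6. Pachytene onset genes gave 2, 3, 3 and 3 of 5 in the same order of arrays. On each array the meiotic share lay below the spermatid share, and on 3 of the 4 arrays the gap was smaller than the share of 1 meiotic gene. The exception was control 1, where the meiotic gene Ddx4 counted as undetected and its reading was among the dropped spots. The class difference was not tested.

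**Figure D1:**
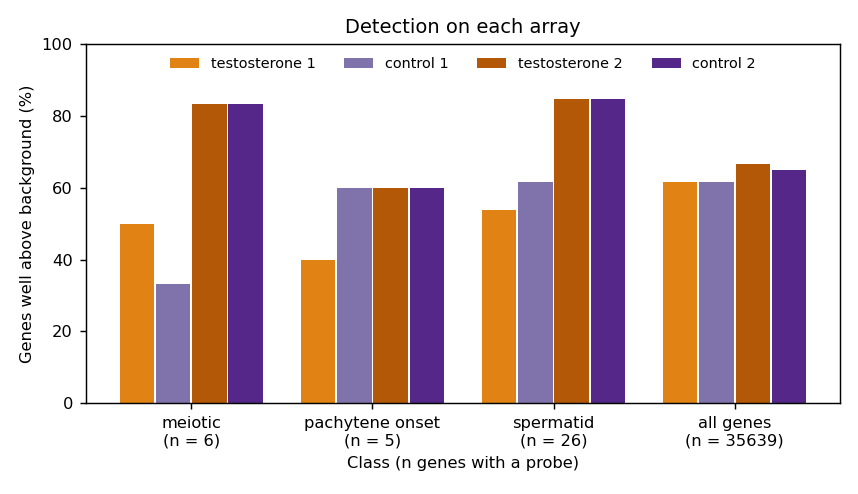
Share of genes well above background (percent, from 0) on each of the 4 arrays, for meiotic, pachytene onset and spermatid members and for all genes. The spermatid bars stand at 53.8% and 61.5% on the arrays numbered 1 and at 84.6% on both arrays numbered 2.

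Of the 37 members, 18 were well above background on all 4 arrays and 7 on both arrays numbered 2 alone, namely Cabs1, Prm2, Spata3, Sycp1, Sycp3, Tssk2 and Tssk6. Over all genes, 2.35% were detected on both arrays numbered 2 alone and 0.199% on both arrays numbered 1 alone. No member showed the latter pattern. Ddx4, Ldhc, Odf1 and Prm3 were detected on 3 arrays, Hspa1l and Spam1 on 1. Acrv1, Adam2, Akap4, Dmc1, Pgk2 and Zpbp were below that flag on every array, so no fold is given for them.

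The arrays numbered 2 held far more transition protein RNA than those numbered 1, in both treatment groups. Tnp1 encodes a transition protein that replaces histones in elongating spermatids. It stood at -3.42 on testosterone 1 and -2.80 on control 1, and at 1.59 on both testosterone 2 and control 2. Both arrays numbered 2 lay above both numbered 1, with no overlap. The difference of number 2 minus number 1 was 4.70 ± 0.24 (SE, n = 2 arrays a number), a 26.0-fold difference, with a 95% interval from 4.05 to 5.35 (adjusted p = 0.00956 in limma). Tnp2, the second transition protein gene, stood at -3.93 on testosterone 1 and -4.80 on control 1, against 0.47 on testosterone 2 and 0.51 on control 2. Its difference was 4.86 ± 0.32 (SE, n = 2), or 29.0-fold (3.99 to 5.72; adjusted p = 0.0165 in limma). Among 23122 genes tested, Tnp2 ranked 10 and Tnp1 ranked 13 by the size of the increase.

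Protamine 1 (Prm1), the small arginine-rich protein that packs sperm DNA, read -2.76 on testosterone 1 and -2.25 on control 1, and 0.33 on testosterone 2 and 0.41 on control 2. The increase of 2.87 ± 0.21 (SE, n = 2; 7.30-fold, 2.30 to 3.43) also passed the test (adjusted p = 0.0192 in limma). Prm2 was not well above background on testosterone 1 (-6.34) or control 1 (-5.59), and was on testosterone 2 (-4.08) and control 2 (-4.44). Both numbered 2 were the higher pair. Their mean was 2.42-fold above the lowest signal called above background or the dim reading itself, whichever was higher. Such a floor-based fold is no strict lower limit, since some readings above that lowest signal were not flagged. Ldhc, for one, read -5.36 on testosterone 1 without the flag, where the lowest flagged signal was -5.51. Prm2 missed the test (adjusted p = 0.0617 in limma). Prm3, another gene of the protamine cluster, read -5.42 and -3.87 on the arrays numbered 1 and -3.77 and -3.27 on those numbered 2, and also missed it (adjusted p = 0.266 in limma). Prm1, Prm2, Prm3 and Tnp2 are neighbours: their probes lie within 8858 bases of chromosome 10 (4808417 to 4817274, build rn4). Their differences ranged from 1.12 for Prm3 to 4.86 for Tnp2. The Tnp1 probe lies on chromosome 9 (72397916 to 72397975, rn4).

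The promoters of Tnp1, Tnp2 and Prm1 are shown because these genes gave the 3 largest differences among spermatid genes detected on all 4 arrays. Each run is the 250 bases before the annotated start, from RefSeq on build GRCr8, written 5′ to 3′ on the strand of the gene. The intervals are chr9:82044279-82044528 (minus strand) for Tnp1, chr10:5386485-5386734 (plus strand) for Tnp2 and chr10:5378490-5378739 (plus strand) for Prm1. Capitals mark matches to 4 motifs that were chosen with these sequences in view: TGACGTCA, the cAMP response element; TGACTTCA, a variant of it; and the TATA-like runs TATAAA and TATATAA.
Tnp1: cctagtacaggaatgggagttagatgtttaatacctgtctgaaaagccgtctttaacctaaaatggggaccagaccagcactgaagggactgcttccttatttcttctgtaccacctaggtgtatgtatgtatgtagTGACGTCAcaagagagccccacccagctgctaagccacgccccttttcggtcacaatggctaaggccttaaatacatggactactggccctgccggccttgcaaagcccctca
Tnp2: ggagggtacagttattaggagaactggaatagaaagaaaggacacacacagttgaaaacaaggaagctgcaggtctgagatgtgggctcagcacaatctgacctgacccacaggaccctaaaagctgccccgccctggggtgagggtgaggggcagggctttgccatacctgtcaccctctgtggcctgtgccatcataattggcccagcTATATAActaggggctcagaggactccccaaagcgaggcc
Prm1: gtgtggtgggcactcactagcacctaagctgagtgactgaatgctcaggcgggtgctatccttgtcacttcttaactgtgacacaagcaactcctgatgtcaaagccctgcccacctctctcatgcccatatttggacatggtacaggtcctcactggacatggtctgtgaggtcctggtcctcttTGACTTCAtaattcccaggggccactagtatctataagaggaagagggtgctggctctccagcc
The cAMP response element begins 113 bases before the start of Tnp1, the variant 64 bases before that of Prm1, and TATATAA 40 bases before that of Tnp2. Both strands were searched over 250 bases before to 50 after the start, and no 2 of these motifs overlapped in the printed runs. Among 27457 rat promoters of that window, 1.91% held TGACGTCA, 1.72% TGACTTCA, 14.3% TATAAA and 3.9% TATATAA. Of 33 members with a promoter in the table, TGACGTCA was in that of Tnp1, TGACTTCA in those of Prm1 and Tssk2, TATATAA in that of Tnp2, and TATAAA in those of Cabs1 and Spam1. A match describes the letters and shows no binding.

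Smcp, Odf1 and Tekt2, genes of the sperm midpiece and tail, were also called higher. Smcp encodes a cysteine-rich protein of the sperm mitochondrial capsule. It read -3.17 on testosterone 1, -2.61 on control 1, -0.19 on testosterone 2 and -0.05 on control 2, an increase of 2.77 ± 0.22 (SE, n = 2; 6.84-fold; adjusted p = 0.0214 in limma). Odf1, a protein of the outer dense fibres, read -5.49 on testosterone 1, below the detection flag, -4.93 on control 1, and -2.74 and -2.68 on the arrays numbered 2 (2.50 ± 0.22, SE; adjusted p = 0.0229). A second Odf1 probe was below the detection flag on every array. For both genes the arrays numbered 2 exceeded both numbered 1.

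Tekt2, a tektin of flagellar microtubules, stood at -4.89 on both arrays numbered 1 and at -2.76 and -2.77 on testosterone 2 and control 2. Its increase of 2.12 ± 0.11 (SE, n = 2) had the narrowest interval of the members called (1.83 to 2.41; adjusted p = 0.00956 in limma). The other tektins did not follow it. Tekt3 was bright on all arrays at 2.82, 3.0, 2.70 and 2.87 on testosterone 1, control 1, testosterone 2 and control 2, a difference of -0.13 (-0.50 to 0.25; adjusted p = 0.572 in limma). Tekt1 differed by 0.11 (-0.23 to 0.45), a difference that turned negative under median centring and under normexp with quantile normalization.

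Akap3, an anchoring protein of the fibrous sheath, read -3.79 and -3.16 on the arrays numbered 1 and -1.91 and -1.66 on those numbered 2. The pairs were apart, but the difference of 1.69 narrowly missed the test (adjusted p = 0.0506 in limma). Akap4, its partner in the sheath, was below the detection flag on every array, at -7.76, -7.80, -6.47 and -6.93 on testosterone 1, control 1, testosterone 2 and control 2. Odf2 is an outer dense fibre protein that is also a centrosome component of other cells. It read 1.81 and 1.78 on testosterone 1 and control 1 and 1.55 and 1.19 on those numbered 2, a difference of -0.42 (-0.87 to 0.02; adjusted p = 0.183 in limma). Its second probe gave -0.52.

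Of other spermatid genes, Cabs1 encodes a calcium-binding protein of elongating spermatids. It was not well above background on testosterone 1 (-7.73) or control 1 (-7.77) and was on testosterone 2 (-4.28) and control 2 (-4.64). The number 2 mean was -4.46 and the number 1 mean -7.75, and the floor-based fold was 2.11. Spata3, named for its association with spermatogenesis, was likewise below that flag at -7.01 and -6.79 and above it at -4.83 and -4.15 on testosterone 2 and control 2. Its means were -4.49 and -6.90, with a floor-based fold of 2.06. Both entered the test only through the arrays numbered 2, so their test results (adjusted p = 0.00956 and 0.0321 in limma) are no independent support. Spata19, a mitochondrial protein of spermatids, read -4.40 and -4.49 against -2.72 and -3.0, an increase of 1.59 (adjusted p = 0.0247 in limma). Tssk3, a testis-specific serine kinase, read -4.65 and -4.54 against -3.26 and -3.19, an increase of 1.37 (adjusted p = 0.0226). In each of these 4 genes both arrays numbered 2 exceeded both numbered 1.

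The related kinases Tssk2 and Tssk6 were detected on the arrays numbered 2 alone. Tssk6 read -7.29 and -7.09 on testosterone 1 and control 1 and -4.19 and -5.45 on testosterone 2 and control 2. Its floor-based fold was 1.64, with an adjusted p of 0.0666 in limma. For Tssk2 the floor-based fold was 1.90 (adjusted p = 0.0617 in limma), and neither passed the test. Gapdhs, the sperm form of the glycolytic enzyme GAPDH, went different ways in the groups, reading -4.95 on testosterone 1, -3.85 on testosterone 2, -2.29 on control 1 and -4.56 on control 2. Acr, the acrosomal protease acrosin, differed by 0.41 and missed the test.

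**Figure D2:**
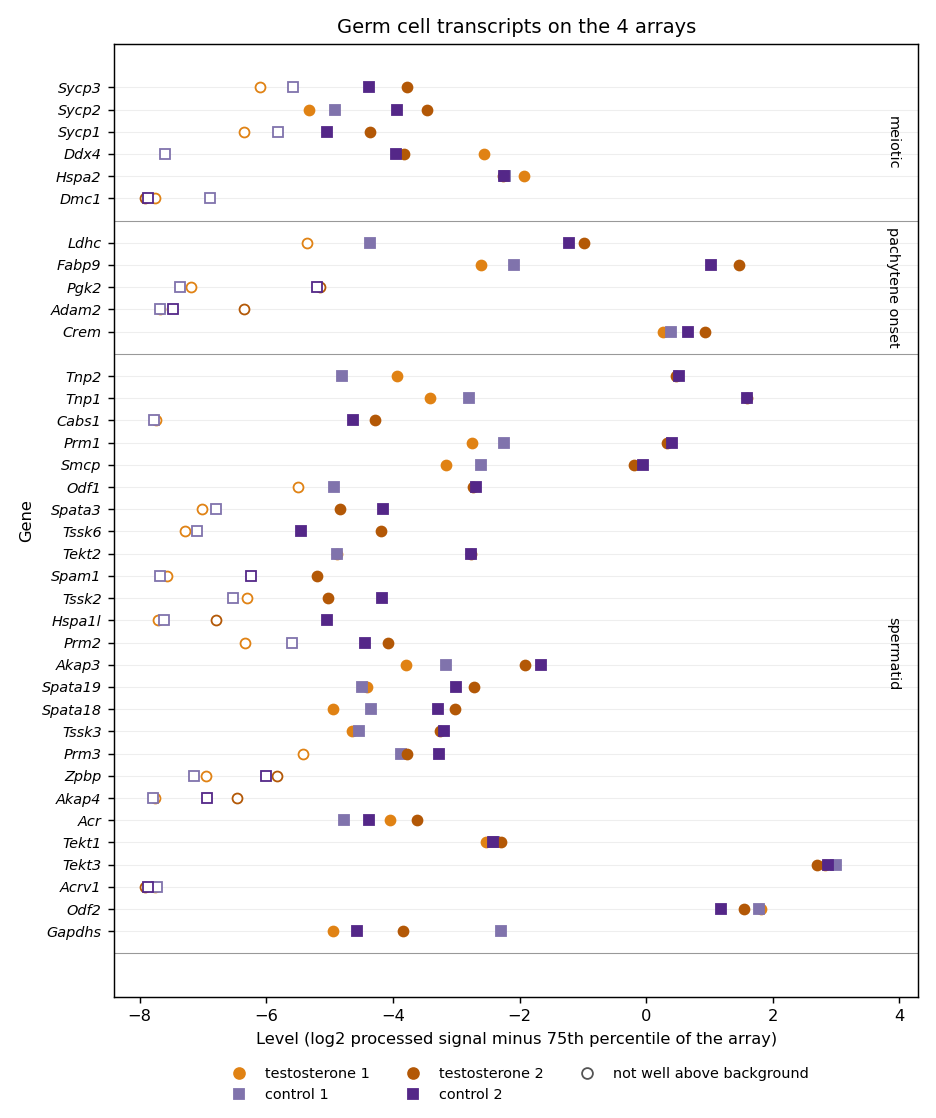
Level of each of the 37 members with a probe (log2 processed signal minus the array's 75th percentile) on the 4 arrays; circles are testosterone, squares control, dark colours the arrays numbered 2, and open symbols probes not well above background. Tnp1, Tnp2, Prm1, Smcp, Fabp9 and Ldhc show the arrays numbered 2 far to the right of those numbered 1, while Odf2, Tekt3 and Hspa2 do not.

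Of the pachytene onset genes, Ldhc and Fabp9 were called higher, with increases smaller than those of Tnp1 and Tnp2 and larger than those of the other spermatid genes called. Ldhc, the germ cell lactate dehydrogenase, read -5.36 on testosterone 1, where it was not well above background, and -4.36 on control 1. It stood at -0.99 on testosterone 2 and -1.22 on control 2, an increase of 3.76 ± 0.37 (SE, n = 2; 13.5-fold, 2.75 to 4.76; adjusted p = 0.0267 in limma). Fabp9, a fatty acid binding protein of spermatids and the sperm perforatorium, read -2.60 and -2.09 on the arrays numbered 1 and 1.47 and 1.02 on those numbered 2. Its increase was 3.59 ± 0.26 (SE, n = 2; 12.1-fold; adjusted p = 0.0190 in limma). For both genes the pairs did not overlap.

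Crem, which encodes the cAMP response element modulator and is expressed in many tissues, moved little. It stood at 0.27 on testosterone 1 and 0.39 on control 1 and at 0.93 on testosterone 2 and 0.66 on control 2. The difference was 0.47 (0.07 to 0.86; adjusted p = 0.132 in limma), and its second probe gave 0.04. The probe names do not separate the testis isoforms of Crem from the others.

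The meiotic genes were higher on the arrays numbered 2 in part. Of the 5 tested, 0 passed the test in limma and 3 had an unadjusted p under 0.05. Sycp1, Sycp2 and Sycp3 encode proteins of the synaptonemal complex. Sycp3 was not well above background on testosterone 1 (-6.09) or control 1 (-5.57) and was on testosterone 2 (-3.77) and control 2 (-4.38). Its floor-based fold was 2.75 (adjusted p = 0.0574 in limma). Sycp1 read -6.35 and -5.81 against -4.37 and -5.04, with a floor-based fold of 1.78 (adjusted p = 0.0841 in limma). Sycp2 was detected on all 4 arrays, at -5.33 and -4.92 against -3.46 and -3.94, a difference of 1.43 (0.77 to 2.09; adjusted p = 0.0588 in limma). In all 3 genes both arrays numbered 2 lay above both numbered 1. Sycp2 was called when the test was limited to genes detected on all 4 arrays (adjusted p = 0.0349 in limma) or to probes outside array columns 57 to 85 (0.0399). Sycp3 was called outside those columns (adjusted p = 0.0385) and with median centring (0.0474), though it too was detected on the arrays numbered 2 alone.

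Hspa2, a heat shock protein needed in male meiosis and also present in other tissues, stayed between -2.26 and -1.93 on the 4 arrays and differed by -0.17 (-0.58 to 0.24; adjusted p = 0.482). Ddx4, the germ cell RNA helicase VASA, read -2.56 on testosterone 1, -3.83 on testosterone 2 and -3.96 on control 2, but -7.59 on control 1. That reading is among the dropped spots of control 1 (array column 78), and the difference of 1.18 had an interval from -3.53 to 5.90. Dmc1, a meiotic recombinase, was below the detection flag on every array.

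In the test over all genes, 12 of the 29 members tested were called higher on the arrays numbered 2 and 0 lower. Of all 23122 genes tested, 3.42% were called higher and 0.83% lower (adjusted p under 0.05 in limma). By class these were 10 of 21 spermatid genes, 2 of 3 pachytene onset genes and 0 of 5 meiotic genes, and the class difference was not tested. A gene entered with 2 arrays well above background, so the 7 members detected on the arrays numbered 2 alone had to differ. Cabs1 and Spata3 are such members, and the other 10 of the 12 called, 8 of them spermatid genes, were detected on at least 1 array numbered 1. Among genes detected on all 4 arrays, 11 of 18 members were called higher, beside 5.77% of 20795 genes, and 11 had pairs that did not overlap with means at least 2-fold apart, beside 3.65%. With no filter on detection 0 of 37 members and 0 of 35639 genes were called, at a smallest adjusted p of 0.0622, while 25 members had an unadjusted p under 0.05. With treatment as a term 6 of 29 members were called higher, beside 164 of 23122 genes. Those members were Cabs1, Prm1, Smcp, Tekt2, Tnp1 and Tnp2. Of the 12 called, Ldhc, Odf1, Prm1, Smcp, Tnp2 and Tssk3 have their probe in array columns 57 to 85, where control 1 had dropped spots. None of these probes was itself such a spot. Without those columns these genes had no test, and 10 of 16 members were called higher, beside 1029 of 16043 genes. Among those 10, Cabs1, Spata3, Sycp3, Tssk2 and Tssk6 were detected on the arrays numbered 2 alone and had to differ.

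Without testosterone 2 or without control 2, where 1 array stands for the number, 0 members were called, at smallest adjusted p of 0.115 and 0.0903. The median difference of the 37 members was 1.41 without testosterone 2, 1.63 without control 2, 1.38 without testosterone 1 and 1.79 without control 1. Counting all 37 members with no filter, the arrays numbered 2 lay above those numbered 1 with no overlap and a mean difference of at least 2-fold for 26, and below them for 0, beside 6.87% and 1.97% of all genes. These were 20 of 26 spermatid, 3 of 5 pachytene onset and 3 of 6 meiotic genes. Of the 26 members, 3 (Akap4, Pgk2 and Zpbp) were never well above background, 2 (Hspa1l and Spam1) were on 1 array numbered 2, and 7 were on the arrays numbered 2 alone. For all of these the number 1 readings were below the flag, so their fold is not a measured one. Another 3 were detected on 3 arrays and 11 on all 4. With normexp background correction and quantile normalization, which adds an offset of 50, 6 members met that count, for which no share over all genes was taken. In that setting 12 of 29 members were called higher, beside 1014 of 23124 genes.

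The median difference of the 37 members was 1.59, beside 0.04 over all genes. By class it was 1.70 for spermatid, 2.10 for pachytene onset and 1.28 for meiotic genes. The meiotic median, which includes Ddx4 with its dropped spot and the undetected Dmc1, was 0.75 without control 1, 0.63 over the 2 genes detected on all arrays and 0.053 with normexp and quantile normalization. With that normalization the spermatid median was 0.23 and the pachytene onset median 0.55. Over all members the median was 1.87 within testosterone and 1.35 within control. The groups share no array, but the labels do not say whether same-numbered arrays came from separate animals or cultures. A positive difference in both groups was seen for 29 of 37 members, beside 35% of all genes. The differences within testosterone and within control correlated at 0.669 over the 37 members and at 0.883 over the 18 detected on all arrays, and at 0.586 over 20795 genes. These correlations are across genes, which are not independent, and all genes of a group share the same 2 arrays. The normexp and quantile setting lowered the median of the 37 members to 0.23.

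**Figure D3:**
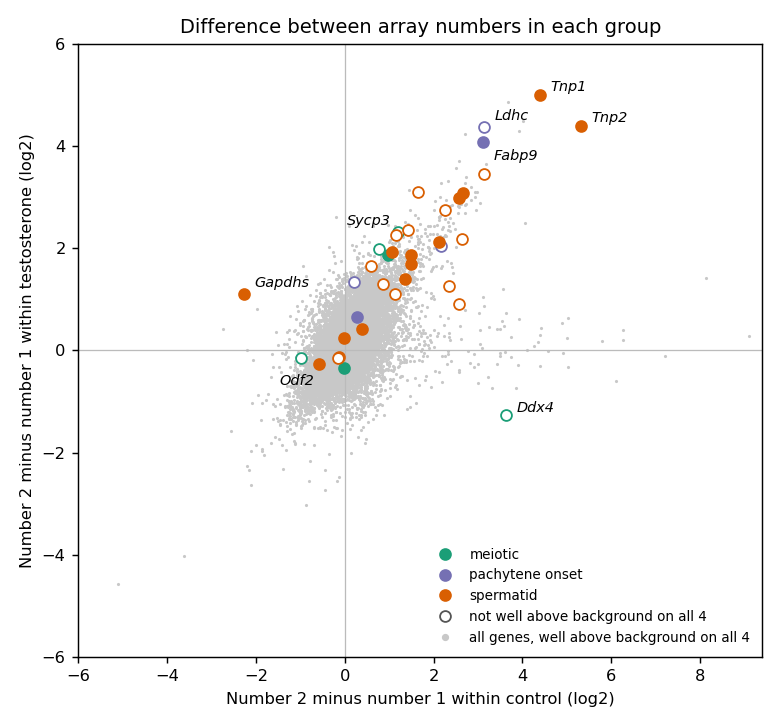
Difference of number 2 minus number 1 (log2) within control (horizontal) and within testosterone (vertical), for the 37 members by class and for the 20795 genes well above background on all 4 arrays (grey). Tnp1 and Tnp2 lie at the upper right, at 5.01 and 4.40 within testosterone and 4.39 and 5.31 within control, while Ddx4 and Gapdhs have opposite signs.

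Other germ cell genes, listed apart from the members, also included genes called higher. Of 27 other meiotic genes with a probe, 17 were tested, 6 were called higher and 0 lower, with a median difference of 0.55. Over all genes tested the shares were 3.42% and 0.83%. Among those 6, Ccna1, Tdrd6 and Smc1b were detected on the arrays numbered 2 alone, so they had to differ and are no independent support. Mael and Tex15, both needed in meiotic prophase, and Tex101, a germ cell surface protein, were called, with differences of 2.82, 2.72 and 1.70 (adjusted p = 0.0352, 0.0123 and 0.0300 in limma). Stag3, the meiotic cohesin, differed by 1.05 and missed the test (adjusted p = 0.180). Of 24 other spermatid genes tested among 39 with a probe, 6 were called higher and 0 lower, with a median of 0.65. Gsg1, Spaca3 (an acrosomal lysozyme-like protein) and Iqcf1 were among them, at 2.72, 1.53 and 0.96. Crisp2, Ropn1 and Spata4, called too, were detected on the arrays numbered 2 alone and likewise had to differ. Of 8 spermatogonial genes tested among 12 with a probe, 1 was called, Sohlh1 at 1.44 (adjusted p = 0.0235 in limma), and the median was 0.22.

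Markers of somatic cells of the testis also moved with the array number. Over all genes tested 3.42% were called higher and 0.83% lower. Of 16 peritubular and smooth muscle markers tested 4 were called higher and 0 lower, among them Tagln at 1.75, Itga1 at 0.96 and Fn1 at 0.91. Synpo2, the other marker called, was well above background on 2 of the 4 arrays. It read -5.49 on testosterone 1 and -5.78 on control 1, near the lowest signals flagged there (-5.51 and -5.56). On testosterone 2 and control 2 it read -3.91 and -4.05, so its call is no independent support. The summed level of these markers, on a linear scale, was 406 and 448 on testosterone 1 and control 1. It was 558 and 549 on testosterone 2 and control 2, with 2 of 18 markers never above background. Among the 18, 12 had a positive difference between numbers and 6 a negative one, such as Smtn at -0.57. Of 10 endothelial markers tested 3 were called higher and 0 lower. Kdr was at 1.92, while Ptprb and Emcn were detected on the arrays numbered 2 alone and had to differ. The other endothelial markers detected on all 4 arrays were Cdh5 at 0.39, Eng at 0.25, Esam at -0.0037 and Vwf at -0.43. Of 13 endothelial markers with a probe 8 had a positive difference and 5 a negative one. The endothelial sum was 2.87 and 3.16 on the arrays numbered 1 and 3.84 and 4.37 on those numbered 2, with 1 of 13 never above background. Of 16 macrophage and leukocyte markers tested 1 was called higher and 3 lower. C1qa, C1qb and C1qc, subunits of complement C1q, fell by 1.03, 1.15 and 1.04 and Adgre1 rose by 1.0; the sum was 212 and 218 against 166 and 173.

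Sertoli cell markers had 0 called higher and 1 lower of 11 tested, Cldn11 at -1.16, with sums of 181 and 190 against 217 and 201. A single gene, Ctsl, at 7.29 to 7.59, made up most of those sums. Of 16 Sertoli markers with a probe 11 had a positive difference and 5 a negative one, and 3 were never above background. Of 13 Leydig markers tested 0 were called. The steroidogenic enzymes Cyp17a1 and Cyp11a1 differed by -1.0 and -0.93 and missed the test (adjusted p = 0.0636 and 0.0517 in limma). Of 15 Leydig markers with a probe 11 had a negative difference and 4 a positive one, among them Akr1c14 at 0.72 and Star at 0.60. Their sums were 300 and 319 on testosterone 1 and control 1 and 378 and 341 on testosterone 2 and control 2. Hsd11b1, at 7.34 to 7.73, was the brightest of them. Of 10 ciliated cell genes tested 2 were called higher, Ccdc113 and Drc1, the latter detected on the arrays numbered 2 alone. The ciliated cell median was 0.25 over 18 genes, and 8 of 18 were never above background. Such cells share tektins with sperm tails. The part of these cell types in the differences of the members was not tested. In RNA from whole cultures, fewer cells of a type and less RNA per cell cannot be told apart. The summed level of the members themselves was 13.5 and 14.8 on testosterone 1 and control 1 and 23.3 and 22.4 on the arrays numbered 2. Tekt3 and Odf2, which were not higher on the arrays numbered 2, made up most of that sum on the arrays numbered 1. The sum therefore does not give the size of the rise of the other members.

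Testosterone gave no such pattern. Of 23122 genes tested 0% were called in either direction in limma, and of the 29 members 0 were called. At an unadjusted p under 0.05 there were 157 genes (0.679%) and 0 members, the smallest member p being 0.0501, for Acr. The median testosterone minus control difference over the 37 members was 0.00, beside 0.01 over all genes, and by class it was -0.13 for spermatid, 0.08 for pachytene onset and 0.06 for meiotic genes. Positive differences were found for 19 members and negative ones for 18. The replicate numbers lie inside both groups and widen the intervals, whose median half-width was 2.48 over the 29 members, against 0.68 for the comparison of numbers. A missed test therefore does not show that testosterone left these genes unchanged.

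Between arrays of the same number, Tnp1 differed by -0.62 for testosterone 1 minus control 1 and by 0.00 for testosterone 2 minus control 2. For Tnp2 these values were 0.87 and -0.04, for Prm1 -0.51 and -0.08, for Ldhc -1.0 and 0.24, and for Sycp3 -0.52 and 0.61. The signs therefore differed between the numbers for Tnp2, Ldhc and Sycp3. Over the 18 members detected on all arrays, no testosterone 2 minus control 2 difference was larger than 0.76 in size, the value of Acr. The median over the 37 members was -0.13 in number 1 and 0.14 in number 2, and the 2 sets of differences correlated at -0.03 across those members.

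By size, the testosterone arrays lay above the controls with no overlap and a mean difference of at least 2-fold for 1 member, Ddx4, and below for 0, beside 1.52% and 0.707% of all genes. The Ddx4 difference of 2.58 (-1.15 to 6.30) came from 5.03 in number 1, where control 1 had the dropped spot, and 0.12 in number 2. At any size the groups did not overlap for 3 members: Ddx4 and Acr were higher with testosterone and Tekt3 lower, beside 10.3% and 7.85% of all genes. Acr differed by 0.74 (0.00 to 1.48), with 0.72 in number 1 and 0.76 in number 2, and was not called (adjusted p = 1.00 in limma). Crem, Odf2 and Hspa2 differed by 0.08, 0.20 and 0.15, and none passed the test.

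**Figure D4:**
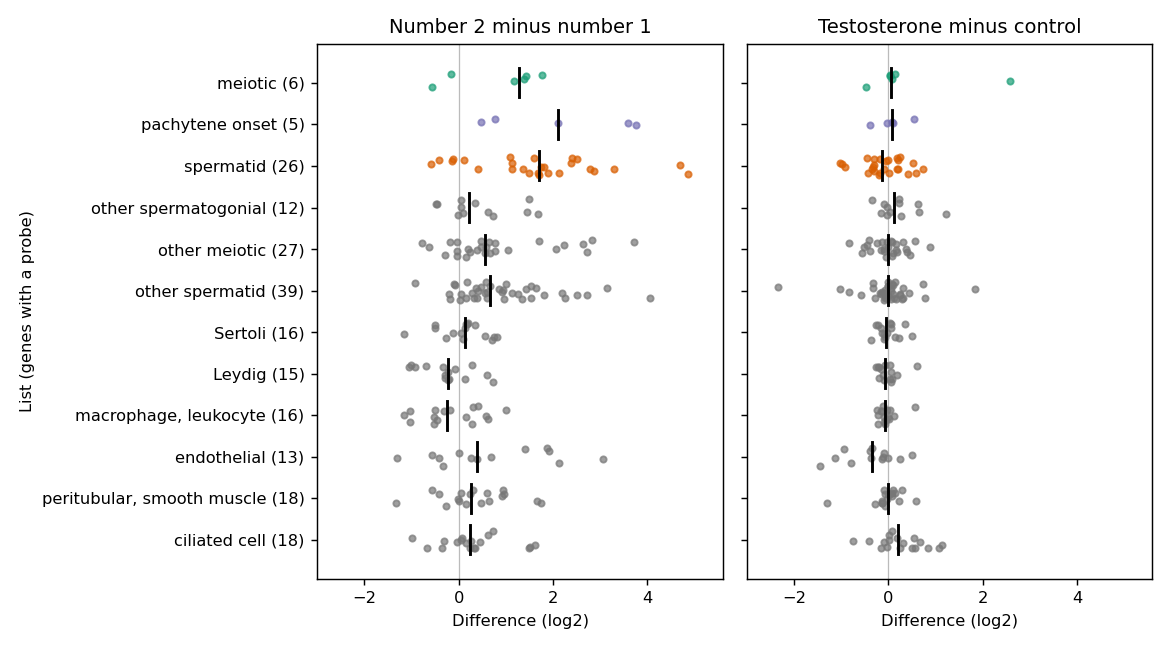
Differences (log2) of number 2 minus number 1 (left) and testosterone minus control (right) for every gene with a probe, by member class (coloured) and by list of other germ cell and somatic genes (grey), with black bars at the medians. On the left the medians of the meiotic, pachytene onset and spermatid classes stand at 1.28, 2.10 and 1.70, and on the right at 0.06, 0.08 and -0.13.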

How the data were processed

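Per the labels' protocols, total RNA of 4 samples was reverse transcribed with oligo-dT, turned into Cy3-labelled cRNA and put on 1-colour Agilent rat arrays. Per the file headers, the deposited scanner files are output of Feature Extraction 11.5.1.1 and hold spot signals as intensity, background-subtracted and detrended in the processed column, with probe positions on rn4. Version 10.5 of that software stands in the submitters' processing notes. The authors' deposited table holds log2 values, which equalled the log2 processed signal minus 1 constant per array (8.79 for testosterone 1, 8.63 for control 1, 8.38 for testosterone 2, 8.55 for control 2; all probes printed once lay within 0.01), with column medians of -3.61, -3.62, -3.34 and -3.45. Its scale, centring and direction were thereby known.

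All 4 arrays were on 1 slide, so no slide or scan was tested as a batch. The 75th percentile of each array was subtracted from its log2 processed signals. Control and outlier spots were left out, spots of a probe were averaged, and the brightest probe stood for a gene. Genes well above background on at least 2 of 4 arrays entered limma 3.58.1 (R 4.3.3) with lmFit and eBayes (2-sided, Benjamini-Hochberg over 23122 genes, called under 0.05), with no covariate. No exact permutation test was run, since 4 arrays in pairs allow no 2-sided p under 0.333. A gene not well above background on both arrays of a number was given a floor-based fold. It sets the mean of the number 2 arrays against, per array, the higher of its own level and the lowest level well above background. Some levels above that lowest one were not flagged, so this fold is no strict lower limit. The script was tested on simulated data. Precision is limited by the number of arrays.

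The members and lists were chosen with earlier results of these data known. Genes named were those called, the 10 largest differences between numbers in each direction among members detected on at least 2 arrays, a fixed set of members, and up to 4 genes of each other list detected on all arrays with the largest differences. Remaining members were named beyond that rule. Spam1, Cabs1, Spata19 and Dmc1 were matched through older symbols. Promoters and motif counts came from RefSeq on GRCr8.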

Additional observations from a re-analysis of the deposited data

Results flagged for a closer look

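For 3 members the difference between numbers had opposite signs in the treatment groups, and whether the groups differ was not tested. Ddx4 differed by -1.27 within testosterone and by 3.64 within control, where the control 1 spot was dropped. Gapdhs differed by 1.11 within testosterone and by -2.27 within control, control 1 being its highest array. Tekt1 differed by 0.25 within testosterone and by -0.02 within control.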

How the results depend on the processing

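Under the alternatives with all 4 arrays, every named member called kept its positive direction between numbers. Genes called between numbers, 982 in all, became 2036 with normexp and quantile normalization (1014 higher and 1022 lower), 0 with no detection filter, 1731 among genes detected on all 4 arrays and 176 with treatment as a term. With median centring 727 were higher and 571 lower, and the median of the genes tested moved from 0.10 to -0.11. Members called became 0 with no filter and 6 with treatment as a term. Members with no overlap and means at least 2-fold apart, 26 of 37, became 6 with normexp and quantile normalization, 11 of 18 among those detected on all arrays and 16 of 23 without array columns 57 to 85. The median difference was 0.23 with normexp and quantile normalization. By the less strict positive-and-significant flag 30 members were detected on testosterone 1. Ddx4 was at -0.072 and Tekt1 at -0.036 with normexp and quantile normalization, and Tekt1 at -0.10 with median centring; the cause was not tested.

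Leaving out 1 array in turn gave 0 to 781 genes and 0 to 12 members called between numbers, Ddx4 at -1.33 to 3.70 and Gapdhs at -1.92 to 0.75, both turning without control 1. For testosterone it gave 0 to 9 genes called, 7 to 16 members so apart and a median of -0.95 to 0.95, the extremes being without testosterone 2 and without testosterone 1. Tnp1 ranged from -2.81 to 2.19, Tnp2 from -2.24 to 3.07, Prm1 from -1.84 to 1.25, Ldhc from -2.57 to 1.81, Sycp3 from -1.12 to 1.21 and Crem from -0.25 to 0.40. Such fits leave the numbers unbalanced, and a lone array is assumed to vary like the others. The testosterone count of 1 such member became 2 at 1.5-fold, 2 with median centring, and 0 with normexp and quantile normalization, among genes detected on all arrays and without columns 57 to 85. Sycp3 was at -0.021 with median centring. With a replicate block 0 genes and 0 members were called for testosterone, 592 genes and 2 members having an unadjusted p under 0.05. Same-numbered arrays deviated together (0.586 over 20795 genes), but the labels tie them by number alone, so the samples were not treated as paired; the replicate block changed no call.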
